A study of Mus musculus with 12 samples.

Results

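Extracellular nucleotide signalling in B cells was described through 8 genes, namely the ATP-gated channels P2rx1, P2rx4 and P2rx7, the receptors P2ry10 and P2ry14, the ectonucleotidases Entpd1 and Nt5e, and the adenosine receptor Adora2a. The 8 genes were chosen by name from the 50090 symbols of a custom mouse array, where 14 of 61307 probes carry their names. Each gene was given by its brightest probe, the one with the highest mean over all arrays. Of the 14 probes, 11 were bright enough to be tested, and 7 of the 8 brightest probes were among them. P2rx1 was not well above background on any array.

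The study asked how resting B (RB) cells respond when Toll like receptor-2 is engaged together with a costimulatory molecule. RB cells were taken by CD43-negative selection from spleens of BALB/c mice that were 6 weeks old and were cultured for 4 h. They were left unstimulated or were stimulated through TLR-2 with the lipopeptide Pam2CSK4, through CD86 with anti-CD86, or through both (TLR2.CD86). The other conditions were stimulation through CD40 with anti-CD40, and anti-CD40 with Pam2CSK4. Per the methods, anti-CD86 carried biotin, was bound on ice and was cross-linked with streptavidin. Whether the unstimulated cells went through these steps is not stated. Each of the 6 conditions has 2 arrays, described by the study as biological replicates, and since the labels do not say from which animals or cultures they came, p-values measure the spread between these arrays only. The labels call the mice female and the methods say male or female. Y-linked Ddx3y, Eif2s3y and Kdm5d were well above background on 12 of 12 arrays, and none of the 4 Xist probes was so on more than 1 array, which goes against the label.

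ATP leaks or is released from stressed and activated cells and opens P2X channels, of which P2X7 needs the highest concentrations and is linked to pore formation and to the inflammasome. CD39, the product of Entpd1, and CD73, the product of Nt5e, act in turn on the cell surface and convert ATP and ADP to AMP and AMP to adenosine. Adenosine then acts on Gs-coupled A2a receptors, which raise cAMP and dampen lymphocyte responses, and B cells are known to carry both CD39 and CD73.

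Levels are log2 signals relative to the 75th percentile of the same array, so that 0 is the signal of a probe at that percentile, and levels of different probes are not comparable with each other. Between 46.6% and 60.6% of probes were well above background on an array, the highest share and the highest median signal being those of replicate 2 of anti-CD40. The arrays lay on 2 slides. Slide 1 held both unstimulated arrays, both arrays of anti-CD40 with Pam2CSK4 and replicate 1 of the other 4 conditions, whose replicate 2 was on slide 2. The slide was associated with the signal of 18074 of 31599 probes tested (limma, adjusted p under 0.05), so that differences are also given with the slide as a block. In the 4 conditions that span the slides, the slide and the replicate cannot be told apart. All 7 B cell markers examined, such as Ms4a1 and Cd79a, were well above background on every array, as were 7 of 8 T cell markers and 8 of 9 markers of monocytes, macrophages and granulocytes, so that markers of other cells were read as well. In such bulk RNA, fewer cells of a type and less RNA per cell cannot be told apart.

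Some members are read by several probes, and these did not always move together. The first 30 bases of the probes of P2rx7, Entpd1 and Adora2a are shown because the results for these genes depend on which probe is read. Each probe is 60 bases long, and the probes of a gene share no stretch longer than 6 bases. They were taken from the deposited files, which place them nowhere in the genome, and no base is marked by capitals.
P2rx7 brightest probe: ttcacttctctctttaaagggaaccatctt
P2rx7 probe 2: ggtcaaaaagctccccaatccatgcaacaa
P2rx7 probe 3: tttcggcactggaggaaaatttgacatcat
Entpd1 brightest probe: gataaatatgtgctaaagccaaagagtcct
Entpd1 probe 2: atggaaatgtaaagagattttgtatctttc
Adora2a brightest probe: tgagtttagagacatcaagtcatggacccg
Adora2a probe 2: acaacttcttcgcttttgtgttgctccccc

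Of the members, Adora2a showed the largest difference by the brightest probes. Its signal was 3.76-fold higher in RB cells given anti-CD40 with Pam2CSK4 than in unstimulated cells. The other Adora2a probe had a mean log2 signal of 0.78 against 0.33 there, a difference that was not called. The differences called in the other members were all decreases from unstimulated cells, in P2rx7, P2ry10, Entpd1 and Nt5e. A difference was called at a limma p-value under 0.05 after Benjamini-Hochberg adjustment over all 31599 probes. Among 7 tested members, 3 were called with anti-CD40, where 16.7% of all probes were called, and 3 with anti-CD40 and Pam2CSK4, against 18.2% of probes. With TLR2.CD86 2 members were called, against 10.6% of probes. The 3 members called with anti-CD40 were lower, as were 10.6% of probes, and so were the 2 with TLR2.CD86, against 7.23%. With anti-CD40 and Pam2CSK4 1 member was higher and 2 were lower, against 8.52% and 9.65% of probes. With Pam2CSK4 and with anti-CD86 none was called by limma, against 0.136% and 2.14% of probes. In each of these, 3 members had an unadjusted limma p under 0.05, as did 4965 and 7321 of the 31599 probes. Blocking on the slide gave counts of 6, 6, 4, 2 and 3 of 7, and the shares of all probes were 37.1%, 47.4%, 34.9%, 10.8% and 28.3% in the same order. All 5 comparisons share the same unstimulated arrays and are therefore not independent of each other. The median log2 difference of the 7 members was −0.52 with anti-CD40, −0.41 with anti-CD40 and Pam2CSK4, −0.31 with TLR2.CD86, −0.26 with Pam2CSK4 and −0.21 with anti-CD86, and the median over all probes lay between −0.07 and 0.01.

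**Figure D1:**
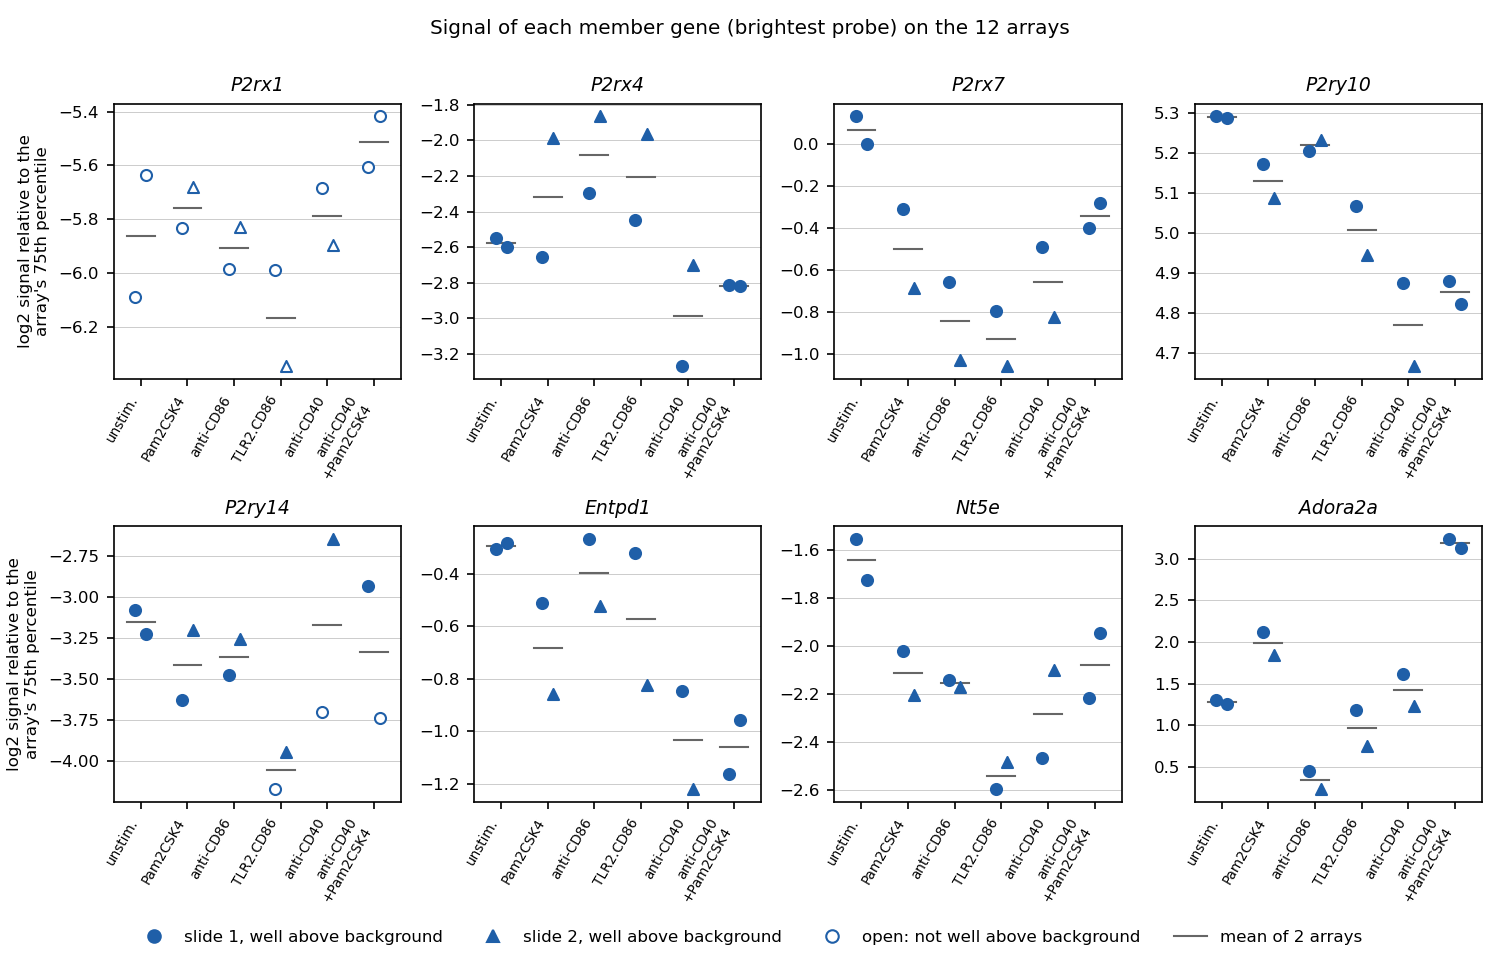
Signal of the brightest probe of each of the 8 genes (y axis, log2 relative to each array's 75th percentile, with its own range in each panel) in the 6 conditions. Circles are arrays of slide 1, triangles arrays of slide 2, open symbols arrays where the probe was not well above background, and lines the mean of 2 arrays. Adora2a is highest with anti-CD40 and Pam2CSK4, at 3.24 and 3.14, and P2rx7, P2ry10 and Nt5e are highest in the unstimulated arrays.

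P2rx7, the channel opened by high extracellular ATP, was highest in unstimulated RB cells, at 0.13 and 0.00 on the 2 arrays. Its signal was −0.40 and −0.28 with anti-CD40 and Pam2CSK4, −0.31 and −0.69 with Pam2CSK4 and −0.49 and −0.82 with anti-CD40. It was −0.66 and −1.03 with anti-CD86 and −0.80 and −1.06 with TLR2.CD86. All 10 stimulated arrays lay below both unstimulated arrays, which was also the case for P2ry10 and Nt5e among the 7 members and for 16.6% of all probes. Among the stimulated conditions, each neighbour in the order of means overlapped with the next. TLR2.CD86, the lowest, did not overlap with Pam2CSK4 or with anti-CD40 and Pam2CSK4.

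The decrease in P2rx7 was called in RB cells stimulated through TLR2.CD86, by 1.99-fold (log2 difference −0.996 ± 0.20 SE, limma adjusted p = 0.0244), and with anti-CD40, by 1.65-fold (−0.72 ± 0.20, limma adjusted p = 0.0418). The study lists P2rx7 among reduced apoptosis genes on these same arrays, so that the TLR2.CD86 value is no independent evidence. With anti-CD86 the difference was −0.91 (limma adjusted p = 0.0575), with Pam2CSK4 −0.57 (limma adjusted p = 0.249) and with anti-CD40 and Pam2CSK4 −0.41 (limma adjusted p = 0.186). The brightest probe of P2rx7 was itself lower on slide 2, by a log2 difference of −0.34 (limma adjusted p = 0.00213). Once the slide was a block, all 5 decreases passed, at −0.83 for TLR2.CD86, −0.74 for anti-CD86, −0.56 for anti-CD40, −0.41 for anti-CD40 with Pam2CSK4 and −0.40 for Pam2CSK4 (limma adjusted p = 0.00105, 0.00226, 0.00201, 0.00376 and 0.0258). Within slide 1 alone the differences were −0.86, −0.73, −0.56, −0.41 and −0.38.

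The call of P2rx7 with TLR2.CD86 was lost when either of its arrays (adjusted p = 0.0517 and 0.122) or either unstimulated array (0.153 and 0.135) was left out. The call with anti-CD40 was lost without either unstimulated array (0.199 and 0.151) and without replicate 2 of anti-CD40 (−0.56, adjusted p = 0.196). The second brightest probe of P2rx7 was also lower on all 10 stimulated arrays, but by less, from −0.54 with Pam2CSK4 to −0.19 with anti-CD86, and no such difference was called (limma adjusted p between 0.348 and 0.695). The third probe was well above background on 4 arrays only and was not tested. The genes whose signal was most like that of P2rx7 over the 12 arrays were Ndufb9 and Ndufa13, subunits of the first complex of the respiratory chain, and Syngr1, with a Pearson r of 0.99, 0.99 and 0.98, and Ndufb9 and Syngr1 were again among the 3 most alike once each slide was centred on its mean. These correlations were the highest of 11821 genes searched, over arrays that share slides and conditions.

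P2rx4, an ATP-gated channel of the cell surface and of lysosomes, lies next to P2rx7 on chromosome 5 with 0 protein-coding genes between them in the RefSeq table of GRCm38.p6. Its signal was −2.55 and −2.60 in unstimulated cells, −3.27 and −2.70 with anti-CD40, −2.81 and −2.82 with anti-CD40 and Pam2CSK4, −2.65 and −1.99 with Pam2CSK4, −2.45 and −1.96 with TLR2.CD86 and −2.30 and −1.86 with anti-CD86. In all 4 conditions that spanned the slides, the array of slide 2 was the higher one, and the slide 2 signal was higher by 0.54 (limma adjusted p = 0.000545). None of the differences from unstimulated cells was called, the lowest adjusted p being 0.348 with a log2 difference of −0.41 for anti-CD40 and 0.49 for anti-CD86. Blocked by slide, the signal was lower with anti-CD40, by −0.68 (limma adjusted p = 0.000892), and with anti-CD40 and Pam2CSK4, by −0.24 (limma adjusted p = 0.0248). The other probe of P2rx4 gave −0.81 with anti-CD40 (limma adjusted p = 0.0699, 0.0843 with the block). Genes most like P2rx4 over the 12 arrays were Sesn2, Uty and Smurf1 (Pearson r of 0.96, 0.94 and 0.89), and none of these remained among the 3 most alike after centring the slides.

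P2rx1, a fast ATP-gated channel known from platelets and smooth muscle, was well above background on 0 of 12 arrays. Its signal lay between −6.35 and −5.42, and no difference was tested.

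P2ry10, a receptor for lysophosphatidylserine found on lymphocytes, was read on all 12 arrays, at 5.29 and 5.29 in unstimulated cells, 5.21 and 5.23 with anti-CD86, 5.17 and 5.09 with Pam2CSK4 and 5.07 and 4.94 with TLR2.CD86. With anti-CD40 and Pam2CSK4 it was 4.88 and 4.82 and with anti-CD40 4.88 and 4.67. The 4 arrays with anti-CD40 were the lowest of all, and only these last conditions overlapped with each other. The decrease was 1.43-fold with anti-CD40 (−0.52 ± 0.11 SE, limma adjusted p = 0.0214) and 1.36-fold with anti-CD40 and Pam2CSK4 (−0.44 ± 0.11, limma adjusted p = 0.0308). TLR2.CD86 gave −0.28 (limma adjusted p = 0.134), Pam2CSK4 −0.16 and anti-CD86 −0.07.

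The slide difference of P2ry10 was −0.10 (limma adjusted p = 0.115). Blocked by slide, its difference was −0.47 with anti-CD40, −0.44 with anti-CD40 and Pam2CSK4 and −0.24 with TLR2.CD86 (limma adjusted p = 0.00309, 0.00226 and 0.0417), and within slide 1 it was −0.42, −0.44 and −0.22. The call with anti-CD40 was lost without replicate 2 of anti-CD40 (−0.42, adjusted p = 0.0925) and without either unstimulated array (0.127 and 0.130), and that with anti-CD40 and Pam2CSK4 when any of its 4 arrays was left out (0.121 to 0.173). Ccng2, an unusual cyclin of resting cells, Camk2d and Tigd2 had the signals most like that of P2ry10 (Pearson r of 0.99, 0.99 and 0.98), and Camk2d stayed among the 3 most alike after centring.

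P2ry14, the receptor for UDP-glucose, was dim and was well above background on 9 of 12 arrays. Its signal was −3.08 and −3.22 in unstimulated cells, −3.63 and −3.20 with Pam2CSK4, −3.47 and −3.26 with anti-CD86, −3.70 and −2.65 with anti-CD40, −2.94 and −3.74 with anti-CD40 and Pam2CSK4 and −4.17 and −3.94 with TLR2.CD86. Only TLR2.CD86 did not overlap with any other condition. Its difference from unstimulated cells was −0.90 ± 0.37 SE and was not called (limma adjusted p = 0.142), but passed with the slide as a block, at −1.15 (limma adjusted p = 0.0313). In the other 4 comparisons the log2 difference lay between −0.26 and −0.02, each with an SE of 0.37. Cenpi, Ndc80 and Aqp5 had the signals most like that of P2ry14, with a Pearson r of at most 0.87, and other genes took their place after centring.

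**Figure D2:**
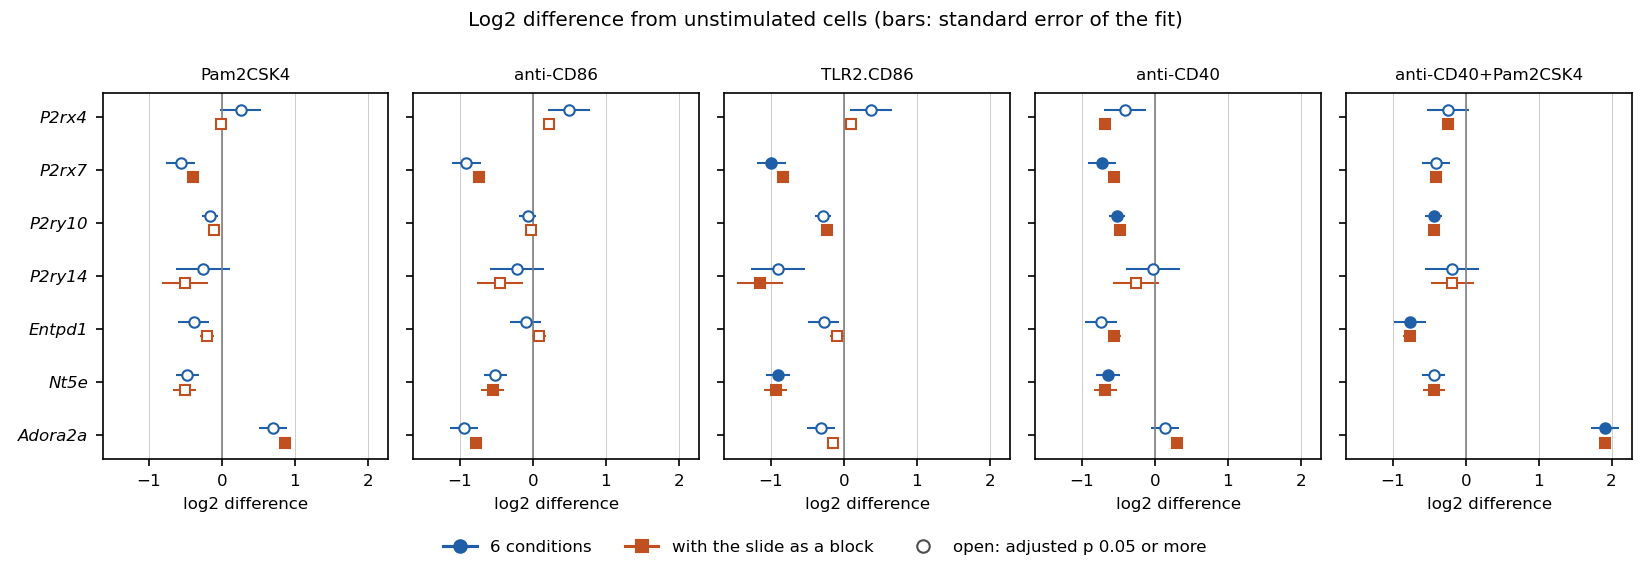
Log2 difference of each tested member from unstimulated RB cells (x axis) in 5 comparisons, with the standard error of the fit as bars. Circles are the fit on the 6 conditions, squares the fit with the slide as a block, and filled symbols have an adjusted p under 0.05. Adora2a with anti-CD40 and Pam2CSK4 stands at 1.91 in both fits, and the other filled circles are decreases.

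Entpd1, which encodes CD39, gave a signal of −0.31 and −0.28 in unstimulated cells by its brightest probe. It was −0.27 and −0.52 with anti-CD86, −0.32 and −0.82 with TLR2.CD86 and −0.51 and −0.86 with Pam2CSK4. It was lowest in the cells given anti-CD40, at −0.85 and −1.22, and anti-CD40 with Pam2CSK4, at −1.17 and −0.96. The unstimulated arrays overlapped with those of anti-CD86 only. Each stimulated condition overlapped with its neighbours in the order of the means.

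The decrease in Entpd1 was called with anti-CD40 and Pam2CSK4 (1.70-fold, −0.77 ± 0.22 SE, limma adjusted p = 0.0434) and fell short of the threshold with anti-CD40 (−0.74, limma adjusted p = 0.0522). Blocked by slide, both passed, at −0.77 and −0.55 (limma adjusted p = 0.000704 and 0.00459), and within slide 1 they were −0.77 and −0.55. Without replicate 2 of anti-CD40 the value was −0.55 (adjusted p = 0.241). The call with anti-CD40 and Pam2CSK4 was lost when any of its 4 arrays was left out (adjusted p = 0.119 to 0.197). The differences with anti-CD86, TLR2.CD86 and Pam2CSK4 were −0.10, −0.28 and −0.39 (limma adjusted p = 0.810, 0.414 and 0.396).

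The other Entpd1 probe gave a broader picture. It was −2.49 and −2.41 in unstimulated cells and lay between −3.50 and −2.90 on all 10 stimulated arrays. Its decrease was called with anti-CD40 and Pam2CSK4 (−0.93, limma adjusted p = 0.00652), anti-CD40 (−0.79, limma adjusted p = 0.0174), TLR2.CD86 (−0.83, limma adjusted p = 0.0227) and anti-CD86 (−0.86, limma adjusted p = 0.0442), and was −0.56 with Pam2CSK4 (limma adjusted p = 0.193). The brightest probe gave −0.10 with anti-CD86 and −0.28 with TLR2.CD86, and the difference between the probes was not tested. In the blocked fit the dimmer probe passed in all 5 comparisons, from −0.93 to −0.45. By the brightest probe, Hps4, Arpc2 and Ano6 were most like Entpd1 (Pearson r of 0.98 each), and Fam102a, Apobec1 and Thra after centring.

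Nt5e, which encodes CD73, was −1.56 and −1.73 in unstimulated cells and lower on all 10 stimulated arrays. Its signal was −2.22 and −1.95 with anti-CD40 and Pam2CSK4, −2.02 and −2.21 with Pam2CSK4, −2.14 and −2.17 with anti-CD86, −2.47 and −2.10 with anti-CD40 and −2.60 and −2.49 with TLR2.CD86. TLR2.CD86 was the lowest and did not overlap with any other condition, while the other stimulated conditions overlapped.

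The decrease in Nt5e was called with TLR2.CD86 (1.87-fold, −0.90 ± 0.16 SE, limma adjusted p = 0.0192) and anti-CD40 (1.56-fold, −0.64 ± 0.16, limma adjusted p = 0.0333). It was −0.52 with anti-CD86, −0.47 with Pam2CSK4 and −0.44 with anti-CD40 and Pam2CSK4 (limma adjusted p = 0.115, 0.246 and 0.0987). The slide difference of Nt5e was 0.07 (limma adjusted p = 0.608). Blocked by slide, the values were −0.93, −0.68, −0.55, −0.51 and −0.44 (limma adjusted p = 0.00595, 0.0163, 0.0434, 0.0892 and 0.0491). Without replicate 2 of anti-CD40 the difference was −0.83 and kept its call (adjusted p = 0.0370), while the call was lost without replicate 1 (−0.46, adjusted p = 0.0807) and without either unstimulated array (0.185 and 0.121). The TLR2.CD86 call was lost when any of its 4 arrays was left out (adjusted p = 0.0605 to 0.139). The other Nt5e probe was not well above background on any array. Atp6v0a2, Tm7sf2 and Ptpn12 were most like Nt5e before and after centring, with a Pearson r of 0.91 to 0.93.

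Summed levels of T cell, NK cell and platelet markers were lower on all stimulated arrays than on both unstimulated arrays. So were P2rx7, P2ry10, Nt5e and the dimmer Entpd1 probe. By the middle of the ranges below, T cell markers ranked the conditions as P2rx7 did, and NK cell markers as Nt5e did. Many of these ranges overlap, so that the orders are not established, and their likeness was not tested. None of the sums ranked them as P2ry10 or the Entpd1 probe did, which were low with anti-CD40 and Pam2CSK4. The summed level of 8 T cell markers was 40.2 to 41.2 times the 75th percentile in unstimulated arrays, 37.2 to 37.3 with anti-CD40 and Pam2CSK4, 32.0 to 38.0 with Pam2CSK4, 28.6 to 36.4 with anti-CD40, 29.6 to 34.3 with anti-CD86 and 27.3 to 35.1 with TLR2.CD86. The 5 NK cell markers summed to at least 10.4 in unstimulated arrays and to 8.69 to 9.41 with anti-CD40 and Pam2CSK4, 8.67 to 9.02 with Pam2CSK4, 7.38 to 8.55 with anti-CD40, 7.87 to 8.50 with anti-CD86 and 6.86 to 7.43 with TLR2.CD86. The 5 platelet markers, of which Gp1ba was not well above background on any array, summed to 4.41 to 4.70 in unstimulated arrays and 2.30 to 3.73 in stimulated ones. Single markers went both ways. By condition, 5 or 6 of 8 T cell markers, 3 or 4 of 5 NK cell markers and 3 to 5 of 5 platelet markers were lower on average. Cd4, well above background on 10 arrays, went from −3.77 to between −3.44 and −2.89.

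The 9 markers of monocytes, macrophages and granulocytes summed to 319 to 347 in unstimulated arrays, 331 to 378 with anti-CD40 and Pam2CSK4, 291 to 320 with Pam2CSK4, 268 to 305 with anti-CD40, 268 to 282 with anti-CD86 and 274 to 305 with TLR2.CD86. With anti-CD40 and Pam2CSK4, 7 of these 9 markers were lower on average than in unstimulated cells, and S100a9 (7.57 and 7.95) and Cd14 (3.01 and 3.04) were higher. The 7 B cell markers summed to 300.2 to 330.0 in unstimulated arrays, 381 to 435 with anti-CD40 and Pam2CSK4 and 277 to 365 in the other stimulated ones. With anti-CD40, 6 of these 7 were lower on average than in unstimulated cells, and Ms4a1 (6.69 and 7.05) was higher. T cells and NK cells can express several of the members, CD39 and CD73 among them. The part of these cells in the results was not tested.

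Adora2a, the Gs-coupled receptor at the end of the route from ATP to adenosine, was the member whose brightest probe differed most between conditions. By its brightest probe the signal was 3.24 and 3.14 with anti-CD40 and Pam2CSK4, 2.12 and 1.85 with Pam2CSK4, 1.62 and 1.23 with anti-CD40 and 1.31 and 1.25 in unstimulated cells. It was 1.18 and 0.75 with TLR2.CD86 and 0.45 and 0.23 with anti-CD86. Only anti-CD40 and unstimulated cells overlapped, and the arrays with anti-CD86, alone or with Pam2CSK4, were the 4 lowest.

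With anti-CD40 and Pam2CSK4, Adora2a was higher than in unstimulated cells by a log2 difference of 1.91 ± 0.19 SE (limma adjusted p = 0.000788), on arrays that all lay on slide 1. It was 3.40-fold higher than with anti-CD40 (1.76, limma adjusted p = 0.00286), 2.30-fold higher than with Pam2CSK4 (1.20, limma adjusted p = 0.00845) and 4.66-fold higher than with TLR2.CD86 (2.22, limma adjusted p = 0.000653). Adora2a was the 1 member called in each of these comparisons, against 2.9%, 9.91% and 12.2% of all probes. In the blocked fit the last 3 differences were 1.60, 1.04 and 2.06, and within slide 1 they were 1.57, 1.07 and 2.01.

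The summed level of 5 dendritic cell markers was 7.90 to 8.28 with anti-CD40 and Pam2CSK4, 7.03 to 8.45 with anti-CD40 and 3.35 to 4.21 in the other conditions. Zbtb46 made up most of this sum (−0.85 in unstimulated cells, 2.53 and 2.30 in these conditions). With anti-CD40 and Pam2CSK4, Itgax went from 1.37 to 0.89 and Siglech from −2.06 to −2.59. The dim Xcr1 rose there from −3.10 to −2.28 and Flt3 from −3.34 to −3.22. With anti-CD40, 4 of the 5 markers were higher on average than in unstimulated cells, all but Itgax. The part of such cells in the Adora2a result was not tested.

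The call of Adora2a against unstimulated cells held when each of the 4 arrays was left out in turn (adjusted p = 0.00929 to 0.0118) and with the median of the array in place of its 75th percentile (1.80, adjusted p = 0.0363). Without replicate 2 of anti-CD40 the difference from anti-CD40 was 1.57 (adjusted p = 0.0166). The comparison with Pam2CSK4 lost its call without either array of anti-CD40 with Pam2CSK4 (adjusted p = 0.0711 and 0.0575) and without replicate 2 of Pam2CSK4 (1.07, adjusted p = 0.0640).

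By the brightest probe, the other differences of Adora2a from unstimulated cells were smaller, and none of them was called. They were 0.70 with Pam2CSK4 (limma adjusted p = 0.184), 0.15 with anti-CD40 (limma adjusted p = 0.628) and −0.94 with anti-CD86 (limma adjusted p = 0.0525), and −0.31 with TLR2.CD86 (limma adjusted p = 0.310). The brightest Adora2a probe was lower on slide 2, by −0.33 (limma adjusted p = 0.00264). In the blocked fit Adora2a passed with Pam2CSK4 (0.87, limma adjusted p = 0.00471), anti-CD40 (0.31, limma adjusted p = 0.0203) and anti-CD86 (−0.78, limma adjusted p = 0.00221), and not with TLR2.CD86 (−0.15, limma adjusted p = 0.182). Adding anti-CD86 to Pam2CSK4 changed the signal by −1.02 (limma adjusted p = 0.143, 0.00358 with the block), with −0.94 within slide 1 and −1.09 within slide 2.

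Whether anti-CD40 and Pam2CSK4 together gave more than the sum of their log2 effects was tested as an interaction. For the brightest probe of Adora2a it was 1.06 ± 0.27 SE and was not called (limma adjusted p = 0.125), while the blocked fit gave 0.73 (limma adjusted p = 0.0176). Without replicate 2 of anti-CD40 it was 0.86 (adjusted p = 0.275). The other Adora2a probe went the other way. Its mean was lower with both signals (0.78) than with anti-CD40 (0.88) or Pam2CSK4 (1.00) alone, and was 0.33 in unstimulated cells. None of 7 members was called for this interaction by limma, against 1.15% of probes called. An unadjusted limma p under 0.05 was found for 3 members and for 6084 of the 31599 probes. For anti-CD86 and Pam2CSK4 the interaction of Adora2a was −0.08 (limma adjusted p = 0.985), and none of 7 members was called, against 0.019% of probes. None of the members had an unadjusted limma p under 0.05, against 1356 of the 31599 probes. No member was called by limma between TLR2.CD86 and Pam2CSK4 or between TLR2.CD86 and anti-CD86 either, against 0.0633% and 0.225% of probes. In each pair 2 members had an unadjusted limma p under 0.05, as did 3264 and 2785 of the 31599 probes. These pairs are balanced over the slides. Blocked by slide, 2 members passed between TLR2.CD86 and Pam2CSK4, P2rx7 (−0.43, limma adjusted p = 0.0187) and Adora2a, against 10.7% of probes, and 1 between TLR2.CD86 and anti-CD86, Adora2a (0.63, limma adjusted p = 0.00968), against 7.54%. For anti-CD40 with Pam2CSK4 the blocked fit called 2 members against anti-CD40, 3 against Pam2CSK4 and 4 against TLR2.CD86, with 15%, 31.4% and 34.5% of probes, and for the interactions with Pam2CSK4 it called 2 for anti-CD40 and 0 for anti-CD86, with 8.41% and 0.234% of probes.

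The increase of Adora2a was not called by its other probe. The signal was 0.28 and 0.39 in unstimulated cells, 0.78 and 0.78 with anti-CD40 and Pam2CSK4, 0.77 and 1.22 with Pam2CSK4, 0.51 and 1.25 with anti-CD40, 0.65 and 1.11 with TLR2.CD86 and 0.36 and 0.86 with anti-CD86. Its log2 difference with anti-CD40 and Pam2CSK4 was 0.45 (limma adjusted p = 0.324, 0.00521 with the block), and against anti-CD40 and Pam2CSK4 alone it was −0.09 and −0.21. Unlike the brightest probe, this probe had a higher mean with anti-CD86 (0.61) and TLR2.CD86 (0.88) than in unstimulated cells (0.33). Its mean with TLR2.CD86 was also above that with anti-CD40 and Pam2CSK4 (0.78). This probe was higher on slide 2 by 0.54 (limma adjusted p = 0.000957), the opposite of the brightest probe. Both probes were well above background on 12 of 12 arrays and are annotated to 1 transcript each. With their mean as the value of the gene, the difference from unstimulated cells was 1.18 (limma adjusted p = 0.000555). This mean contains the brightest probe and is no separate evidence for the rise.

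**Figure D3:**
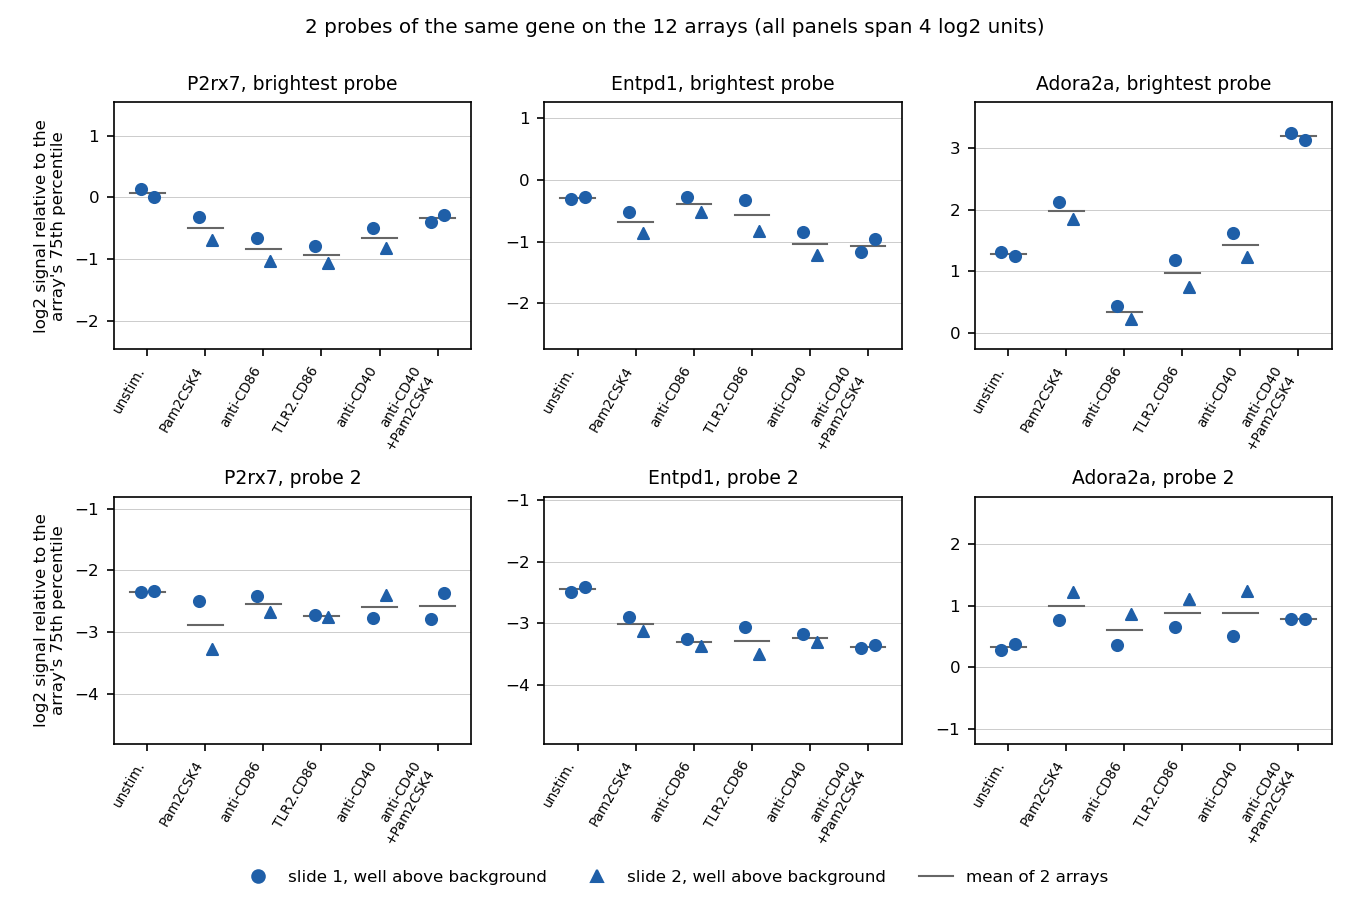
Signal of the brightest probe (upper row) and of the second brightest (lower row) of P2rx7, Entpd1 and Adora2a on each of 12 arrays (y axis, log2 relative to each array's 75th percentile, the same span in all panels). Circles are slide 1, triangles slide 2, and lines the mean of 2 arrays. The rise of Adora2a to 3.24 and 3.14 with anti-CD40 and Pam2CSK4 is seen in the upper row only, and the unstimulated arrays are the highest for both P2rx7 probes and for probe 2 of Entpd1.

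By its brightest probe, the genes most like Adora2a over the 12 arrays were Plau, the urokinase gene, Stx11, a syntaxin of secretory granules, and Plscr1 (Pearson r of 0.97, 0.95 and 0.95). After centring the slides they were Prcc, Zfp36, which encodes an RNA-binding protein that destabilises cytokine mRNAs, and again Plau, with r of 0.98, 0.97 and 0.96.

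The rest of the purinergic system was described through lists of genes. Beside the calls below, 16.7% of all probes were called with anti-CD40, 18.2% with anti-CD40 and Pam2CSK4 and 10.6% with TLR2.CD86. With anti-CD86 and Pam2CSK4 the shares were 2.14% and 0.136%. Outside the members, 48 differences of list genes from unstimulated cells were called. Of these, 5 kept the call without each array in turn (P2ry6, Adcy7 and Prkacb with anti-CD40 and Pam2CSK4, and Nek7 there and with anti-CD40), 23 lost it without some arrays and 20 without any one array. The calls lost whichever array of the comparison was left out were the following. With TLR2.CD86 they were P2ry6, Entpd7, Enpp1, Alpl, Adk, Hprt and Prkaca. With anti-CD40 and Pam2CSK4 they were Entpd7, Enpp1, Cd38, Slc17a9, Pycard, Casp4, Il1b, Creb1 and Pde7a. With anti-CD86 they were Il1b, Adcy6 and Pde4d, and with anti-CD40 Bst1. Among 10 other P2 receptors, 5 were tested and 4 were not well above background on any array, among them P2rx5 and P2ry12. P2ry6, the UDP receptor, was the only one called. It fell 2.28-fold with anti-CD40 and Pam2CSK4 (−1.19, limma adjusted p = 0.00157), 1.82-fold with anti-CD40 (−0.86, limma adjusted p = 0.00932) and 1.69-fold with TLR2.CD86 (−0.75, limma adjusted p = 0.0218), and the blocked fit gave −1.19, −0.85 and −0.74. Of the 4 adenosine receptors, all of them tested, Adora2a alone was called. Among the receptors for lysophosphatidylserine and P2Y-like receptors, 4 of 8 were tested, and Lpar6, a lysophosphatidic acid receptor formerly counted with the P2Y family, was lower beside P2ry10, by −0.96 with TLR2.CD86, −0.87 with anti-CD40 and Pam2CSK4 and −0.53 with anti-CD40 (limma adjusted p = 0.0141, 0.00641 and 0.0474).

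A list of ectonucleotidases, their relatives and other enzymes linked to nucleotides or adenosine held 18 genes, Entpd1 and Nt5e included, of which 13 were tested. With anti-CD40 6 fell and none rose, against 10.6% of all probes that fell, the median log2 difference being −0.60, or −0.46 with genes below background in a condition set at their bound, against −0.01 over all probes. With anti-CD40 and Pam2CSK4 5 fell and none rose (median −0.45, 9.65% of probes), and with TLR2.CD86 5 fell and none rose (median −0.28, 7.23% of probes). Entpd5 and Entpd7, relatives of CD39 that act inside the cell, were lower with anti-CD40 by −0.87 and −0.75 (limma adjusted p = 0.0244 and 0.0196) and with anti-CD40 and Pam2CSK4 by −1.03 and −0.66 (limma adjusted p = 0.00986 and 0.0237), and Entpd7 also with TLR2.CD86 (−0.68, limma adjusted p = 0.0358).

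Enpp1, which splits ATP to AMP and pyrophosphate, was lower in these same 3 comparisons, by −0.46, −0.47 and −0.53 (limma adjusted p = 0.0420, 0.0339 and 0.0372), the calls of Enpp1 with anti-CD40 and Pam2CSK4 and with TLR2.CD86 being lost without any one array (adjusted p = 0.135 to 0.179 and 0.0616 to 0.203). Cd38, which consumes extracellular NAD, was lower with anti-CD40 (−0.72, limma adjusted p = 0.0110) and with anti-CD40 and Pam2CSK4 (−0.50, limma adjusted p = 0.0289), and its relative Bst1 with anti-CD40 (−0.60, limma adjusted p = 0.0390). With TLR2.CD86, Alpl, the phosphatase listed on the array as Akp2, and Dpp4, the peptidase that binds adenosine deaminase in humans, were lower (−0.54 and −0.71, limma adjusted p = 0.0260 and 0.0163). With Pam2CSK4 and anti-CD86 none of the 13 was called by limma. In the blocked fit the numbers that fell were 8 with anti-CD40, 9 with anti-CD40 and Pam2CSK4, 5 with TLR2.CD86, 4 with anti-CD86 and 1 with Pam2CSK4, against 21.4%, 23.7%, 20.4%, 15.4% and 6.15% of all probes, and 1 rose with anti-CD86.

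Among genes of adenosine uptake and metabolism, 8 of 10 were tested. Slc28a2, a concentrative nucleoside transporter, was lower with anti-CD40 and with anti-CD40 and Pam2CSK4, by −0.66 each (limma adjusted p = 0.0248 and 0.0195). Slc29a2, an equilibrative transporter, had no unstimulated array well above background and was at least 3.24-fold higher with anti-CD40 and Pam2CSK4 (limma adjusted p = 0.0109), a call lost for Slc29a2 when any array but replicate 2 of unstimulated cells was left out (adjusted p up to 0.0857), and its measured log2 difference was 1.71, or 0.72 with normexp. Adk, adenosine kinase, and Hprt, listed on the array as Hprt1, were lower with TLR2.CD86 (−0.88 and −0.68, limma adjusted p = 0.0358 and 0.0310), calls lost without any one array for both Adk (0.0528 to 0.180) and Hprt (0.0545 to 0.177), and Ada, adenosine deaminase, was not called in any of the 5 comparisons. Of 10 genes of nucleotide release, 6 were tested, and the ATP channel gene Panx1 was lower with anti-CD40 (−0.85, limma adjusted p = 0.0349), the vesicular nucleotide transporter Slc17a9 with anti-CD40 and Pam2CSK4 (−0.70, limma adjusted p = 0.0214) and the volume channel subunit Lrrc8d with TLR2.CD86 (−0.68, limma adjusted p = 0.0283).

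The inflammasome genes that P2X7 can engage were all tested, 8 of 8. With anti-CD40 and Pam2CSK4 2 rose and 2 fell, against 8.52% and 9.65% of probes, and with anti-CD40 2 fell, against 10.6%. Nek7, the kinase that binds NLRP3, fell 2.04-fold with anti-CD40 (−1.03, limma adjusted p = 0.00232) and 1.99-fold with anti-CD40 and Pam2CSK4 (−0.99, limma adjusted p = 0.00129). Pycard, the adaptor ASC, was lower with TLR2.CD86 (−0.75, limma adjusted p = 0.0267), with anti-CD40 and Pam2CSK4 (−0.70, limma adjusted p = 0.0179) and with anti-CD40 (−0.69, limma adjusted p = 0.0238). Casp4 and Il1b were higher with anti-CD40 and Pam2CSK4, by 0.89 and 0.51 (limma adjusted p = 0.0146 and 0.0190). Il1b was lower with anti-CD86, by −0.64 (limma adjusted p = 0.0416). These calls of Casp4 and Il1b were all lost whichever array of the comparison was left out. Nlrp3 and Casp1 were not called in any of the 5 comparisons.

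On the cAMP route downstream of Gs-coupled receptors such as A2a, 14 of 15 genes were tested. The cyclase gene Adcy7 was lower with anti-CD40 and with anti-CD40 and Pam2CSK4 (−0.88 and −0.84, limma adjusted p = 0.00803 and 0.00562), and Adcy6 with TLR2.CD86 and anti-CD86 (−0.84 and −0.73, limma adjusted p = 0.0122 and 0.0363). Of the catalytic subunits of protein kinase A, Prkacb fell with anti-CD40 and Pam2CSK4 (−0.94, limma adjusted p = 0.00132) and Prkaca with anti-CD40 and TLR2.CD86 (−0.63 and −0.66, limma adjusted p = 0.0400 and 0.0442). Creb1, a transcription factor activated by that kinase, was higher with anti-CD40 and Pam2CSK4 and with anti-CD40 (0.64 and 0.54, limma adjusted p = 0.00809 and 0.0215), though the latter turned to −0.03 when arrays were scaled on their median. Crem was lower with anti-CD40 (−0.96, limma adjusted p = 0.0186). Of the phosphodiesterases that degrade cAMP, Pde7a was higher with anti-CD40 and Pam2CSK4 (0.74, limma adjusted p = 0.0304) and Pde4d with anti-CD86 and anti-CD40 (1.03 and 0.50, limma adjusted p = 0.0245 and 0.0378), the latter turning to −0.06 when arrays were scaled on their median.

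**Figure D4:**
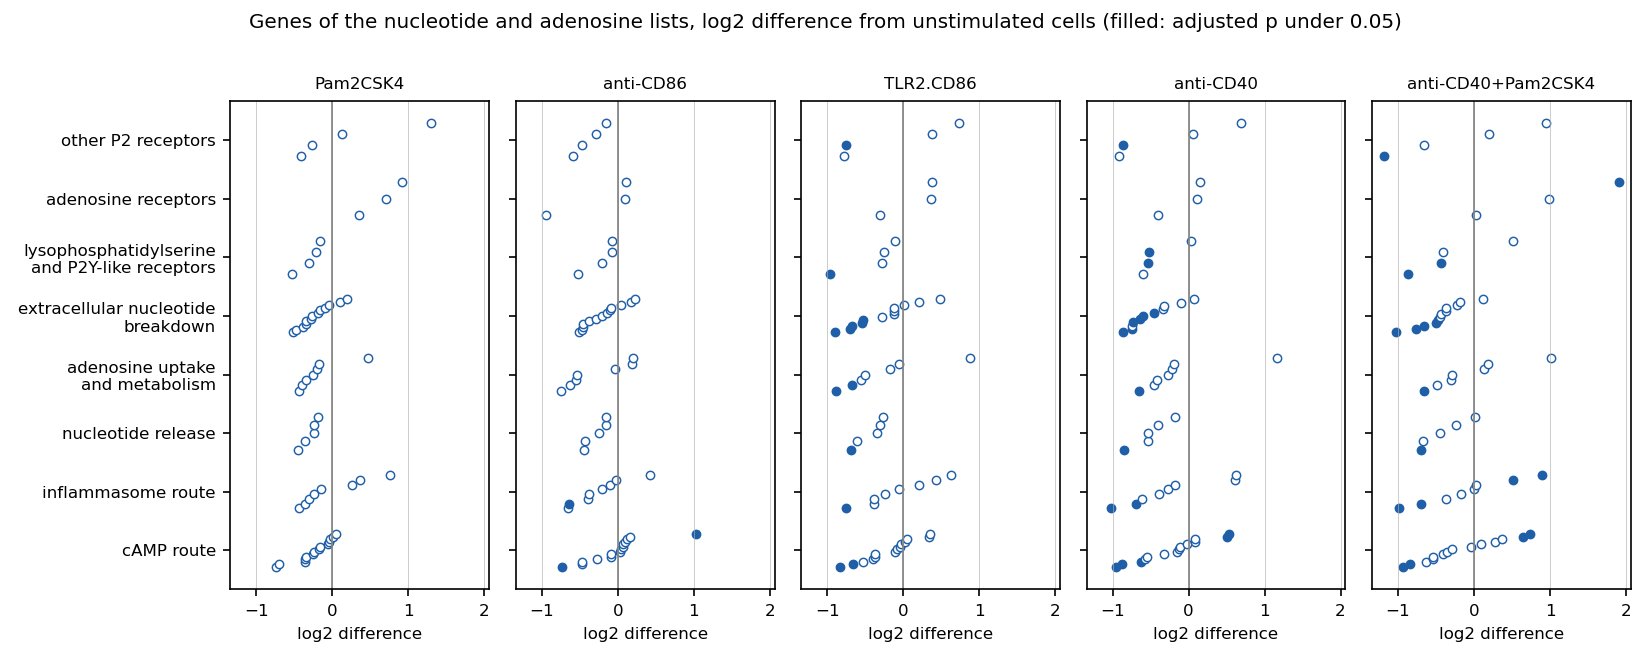
Log2 difference from unstimulated RB cells (x axis) of each tested gene of 8 lists of the nucleotide and adenosine system (y axis, genes of a list spread by value) in 5 comparisons. Filled points have an adjusted p under 0.05, and genes below background in a condition compared are left out. The filled points of the nucleotide breakdown list are all decreases, and Adora2a at 1.91 is the filled point of the adenosine receptors.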

How the data were processed

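Cy3-labelled RNA was hybridised to custom Agilent mouse arrays, 2 for each of 6 conditions, with no isotype control analysed here. Per the labels and the file headers the authors extracted images with Feature Extraction 10.5.1.1. The deposited files hold the intensity of each spot, corrected for background within the array, and other columns with 0 or 1 flags. The authors also deposited log2 values, whose scaling is not named in the sources used here. For over 99.98% of probes they lie within 0.001 of the log2 processed intensity minus 1 constant per array, and their column medians run from −3.94 to −2.80.

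Each signal was the log2 of the processed intensity after subtracting, array by array, the 75th percentile of these log2 values. Control and outlier spots were dropped, and repeated spots of a probe were averaged. Of the saturated spots, which numbered 987 to 1206 on an array and were retained, none belonged to a member. A probe was tested when some condition had it well above background on both of its arrays. A gene below background in a whole condition was given as a bound. The number of arrays limits the precision.

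Tests used limma 3.58.1 in R 4.3.3 over all 12 arrays, checked on simulated data, with Benjamini-Hochberg adjustment over 31599 probes. Named genes were the members, list genes called against unstimulated cells and the 3 genes most correlated with each member. The members, lists and tests were chosen with earlier results of these data known. 1 B cell marker is not reported here. Gene symbols are those of the files, updated through RefSeq synonyms. Replicate numbers were not taken as pairs, since same-numbered arrays deviated together only between conditions split over the slides (r of 0.54 to 0.67, elsewhere −0.11 to 0.07). Alternatives were median and quantile normalization, normexp with an offset of 50, the deposited log2 table, no filter, the slide or the replicate number as a block, and the mean of a gene's probes. In addition, each array of the conditions in a comparison was left out in turn. Results without an array of another condition are not given.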

Additional observations from a re-analysis of the deposited data

How the results depend on the processing

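Each of the 12 comparisons was recomputed under every alternative. No called member changed direction. Far fewer of all probes were called against unstimulated cells once an unstimulated array was left out. A call lost in that way is therefore not particular to the members or the list genes. Leaving out 1 array at a time, which assumes that a lone array varies like the other groups, gave 0 to 3 members called with anti-CD40, 1 with anti-CD40 and Pam2CSK4, and 0 with TLR2.CD86, Pam2CSK4 and anti-CD86. For anti-CD40 with Pam2CSK4 it gave 1 against anti-CD40, 0 to 1 against Pam2CSK4 and 1 against TLR2.CD86, and for TLR2.CD86 0 against Pam2CSK4 or anti-CD86. Both interactions had 0.

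Scaling on the median left 0 members with anti-CD40, 1 with anti-CD40 and Pam2CSK4 and 0 with TLR2.CD86, and 0 for anti-CD40 with Pam2CSK4 against Pam2CSK4. No filter left 0, 1 and 0 of the first 3. The mean of a gene's probes left 1 with TLR2.CD86. Quantile normalization gave 1 with anti-CD86, 2 for anti-CD40 with Pam2CSK4 against Pam2CSK4 and 3 against TLR2.CD86, and normexp 2 with anti-CD86 and 2 for the last. With the slide as a block the counts were 6, 6, 2, 3 and 4 against unstimulated cells in the order anti-CD40, anti-CD40 with Pam2CSK4, Pam2CSK4, anti-CD86 and TLR2.CD86, then 2, 3 and 4 for anti-CD40 with Pam2CSK4 against anti-CD40, Pam2CSK4 and TLR2.CD86, 2 and 1 for TLR2.CD86 against Pam2CSK4 and anti-CD86, and 2 for the CD40 interaction.

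The replicate block, whose numbers do not pair the arrays, gave 2 members with anti-CD86, 1 between TLR2.CD86 and Pam2CSK4, 2 between anti-CD40 with Pam2CSK4 and TLR2.CD86 and 1 for the CD40 interaction, and called 9411 probes with anti-CD40, 8535 with anti-CD40 and Pam2CSK4, 239 with Pam2CSK4, 3973 with anti-CD86 and 7755 with TLR2.CD86.

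Probes called ran from 349 to 11728 around 5280 with anti-CD40, from 465 to 14977 around 5739 with anti-CD40 and Pam2CSK4, from 4 to 3417 around 43 with Pam2CSK4, from 0 to 8944 around 675 with anti-CD86 and from 26 to 11033 around 3358 with TLR2.CD86. Scaling on the median shifted the median of all probes by −0.57, −0.11, −0.19, −0.14 and −0.29 in that order, and turned 1072 higher and 2286 lower with TLR2.CD86 into 83 and 49.

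Differences that were not called and changed sign were the following. P2rx4 with anti-CD40 and Pam2CSK4 was 0.0111 under normexp, and with Pam2CSK4 it was −0.0144 with the slide block and −0.0780 to 0.588 when an array was left out. P2ry10 with anti-CD86 was 0.11 under quantile normalization. P2ry14 with anti-CD40 was 0.0266 under normexp and −0.547 to 0.50 without an array, and with anti-CD40 and Pam2CSK4 0.11 and −0.586 to 0.22. Entpd1 with anti-CD86 was 0.0837 with the slide block and −0.229 to 0.0271 without an array. Adora2a with anti-CD40 was −0.42 under the median and −0.0499 to 0.341 without an array, with TLR2.CD86 0.12 by the mean of probes, and in the CD86 interaction −0.289 to 0.13 without an array. Of the list genes called with anti-CD40, Creb1 (−0.0317) and Pde4d (−0.0632) changed sign under the median. The cause was not tested. Dim probes such as P2ry14 and 2 arrays per condition limit what can be seen.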
